A study of Mus musculus with 12 samples.

Results

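The messenger RNAs of 10 transcriptional regulators of mitochondrial energy metabolism were followed across 12 adult mouse heart libraries. They are the PGC-1 coactivators Ppargc1a, Ppargc1b and Pprc1, the estrogen-related receptors Esrra, Esrrb and Esrrg, the nuclear respiratory factors Nrf1 and Gabpa, and the fatty acid receptors Ppara and Ppard. They were taken by symbol from the 23457 rows of the deposited count table, and all 10 had a row. They were chosen by function, with earlier results of these data known. Each also passed the filter on low counts, which left 13050 genes to test.

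The libraries came from 6 noninduced hearts and 6 Parkin KO hearts of adult mice on the C57BL/6J background. By the labels, noninduced mice carried floxed alleles and no Cre, and Parkin KO mice carried floxed alleles together with MERCreMer, a Cre recombinase that tamoxifen switches on, and the labels place both groups 9 to 10 weeks after tamoxifen. Since MERCreMer is labelled for the Parkin KO group alone, loss of Parkin and presence of the recombinase cannot be told apart. The series describes the knockout as cardiac-specific, and the promoter that drives MERCreMer is not given in the sources used here. Polyadenylated RNA was prepared from the frozen apex of the ventricles, although the tissue label reads whole heart. Nothing in the labels says how the animals were related or whether any were pooled, so p-values measure the spread between these samples.

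PGC-1 proteins do not bind DNA themselves. They dock on nuclear receptors such as the ERR and PPAR proteins, and on NRF1, and bring in enzymes that open chromatin and start transcription. ERR proteins act on genes of the respiratory chain and the tricarboxylic acid cycle, NRF1 and the GABP complex on respiratory subunits and on the factors that copy and transcribe mitochondrial DNA, and PPAR proteins on fatty acid uptake and oxidation, the main fuel route of the adult heart.

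Total counts ran from 11610507 to 16884516 per library. Cardiomyocyte markers were abundant throughout, Myh6 at 22366 CPM (reads scaled to the library's total) or more, while the 6 adipocyte markers had a median sum of 0.447 CPM among noninduced and of 0.455 CPM among Parkin KO libraries, with a highest sum of 8.72 CPM in noninduced library 5. Among them, Adipoq reached 0.475 CPM, Cfd 5.22 CPM and Ucp1 of brown fat 0.064 CPM. Several libraries stood apart. Esr1, on which MERCreMer reads can be counted, reached 558 CPM in noninduced library 1 and 962 CPM in noninduced library 3, against 64.9 CPM or less in the other 4 noninduced and 1553 to 4683 CPM in the Parkin KO libraries. The values of these 2 libraries go against their label of no Cre, so noninduced is used here as the label only, and Pprc1 and Ppard are also given without them. Y-linked reads numbered 495 or more in Parkin KO libraries 2, 5 and 6, 178 in noninduced library 3 and 7 or fewer in the other 8. Noninduced library 3 also held Xist, the RNA of the inactive X chromosome, at 77.2 CPM, against 5.25 CPM or less in Parkin KO libraries 2, 5 and 6. Noninduced libraries 1 and 2 drew 16.0% and 16.7% of their counts from the 37 genes of mitochondrial DNA, against 5.17% to 10.5% in the rest. Atrial markers summed to 3330, 5987 and 4083 CPM in noninduced libraries 2, 5 and 6, and to 1547 CPM or less in the others.

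Levels of different genes were compared per transcript length with the FPKM values deposited by the authors. Esrra was the most abundant regulator, with a median of 77.4 FPKM over the 12 libraries, and its lowest library lay above the highest of every other member. Ppargc1b followed at 36.9 FPKM and Ppard at 23.8 FPKM. Ppara, Esrrb and Ppargc1a formed a middle tier at 16.6, 16.3 and 14.6 FPKM, and neither neighbour in that tier was consistently the higher, since Ppara exceeded Esrrb in 6 of 12 libraries and Esrrb exceeded Ppargc1a in 8. Pprc1 at 8.90, Esrrg at 7.47, Gabpa at 6.38 and Nrf1 at 4.34 FPKM made up the lower end, where Pprc1 exceeded Esrrg in 8 and Esrrg exceeded Gabpa in 11 of 12 libraries. Within families the order held in all 12 libraries: Ppargc1b over Ppargc1a over Pprc1, Esrra over Esrrb over Esrrg, Gabpa over Nrf1 and Ppard over Ppara.

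This order partly depends on the length assumed for each gene. With CPM divided by kilobases of annotated exon, Esrra stayed first by median, but its range overlapped that of Ppara, which it exceeded in 9 of 12 libraries. Pprc1, Esrrg, Gabpa and Nrf1 kept places 7 to 10. Ppara moved from place 4 to 2, Ppargc1b from 2 to 3, Ppargc1a from 6 to 4 and Ppard from 3 to 6. Ppargc1b exceeded Ppargc1a in 11 of 12 libraries by this measure. The order of the 2 PPAR genes is therefore not settled by these data, nor is the separation of Esrra from every other member.

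Upstream sequence was available from RefSeq (GRCm38.p6) for 9 of the 10 members, in 14 windows of 250 bases before a transcription start. The windows were searched on both strands for motifs of the regulators themselves, to show which members carry a binding motif of the same circuit. The cyclic AMP element and the MEF2 site, which belong to factors outside the members, were searched as well. The ERR element TNAAGGTCA (held by 1.14% of 32851 promoters), the PPAR direct repeat, AGGTCA and again AGGTCA with any 1 base between (0.0335%), the GABP site CCGGAAGT (2.88%) and the cyclic AMP element TGACGTCA (1.55%) were found in 0 of the 14. The NRF1 site, GCGC and TGCGC with any 1 base between (3.74% of promoters), occurred once, at Ppara, 31 to 22 bases before the start. The MEF2 site, CTA and TAG with any 4 bases between (3.20%), occurred once, at the first start of Esrrg, 22 to 13 bases before it. A single receptor half-site, AGGTCA (14.0%), lay at Pprc1, 113 to 108 bases before a RefSeq start. These 6 letters are also part of the ERR element and of the PPAR repeat. All 3 matches lie inside the gene spans given below, which begin before these RefSeq starts. The stretches below give these 3 matches, with the motif in capitals.
Ppara, NRF1 site, chr15:85735733-85735766, plus strand: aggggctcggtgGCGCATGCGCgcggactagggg
Esrrg, MEF2 site, chr1:187608972-187609005, plus strand: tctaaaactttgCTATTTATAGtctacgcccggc
Pprc1, half-site, chr19:46056414-46056443, plus strand: aatcctcgagggAGGTCAgggcctttatct

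The promoters also differ in base composition. CG dinucleotides, the sites of DNA methylation, numbered 33 in the 250 bases before the first start of Nrf1, 27 at Ppara, and 22 at both Esrra and Ppard, against a median of 6 over all promoters. Gabpa had 19, Pprc1 had 8 and Ppargc1a had 5. Where a gene had several starts the counts differed, with 2 at the second start of Nrf1, 6 and 3 at the starts of Esrrb, and 9, 14, 22 and 16 at those of Esrrg. The 60 bases from 70 to 11 before the start show the contrast between Nrf1, the member of lowest level, Esrra, the member of highest level, and Ppargc1a, the member of widest spread between libraries. Here capitals mark CG dinucleotides.
Nrf1, chr6:30047918-30047977, plus strand: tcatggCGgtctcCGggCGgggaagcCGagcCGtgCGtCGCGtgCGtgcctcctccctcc
Esrra, chr19:6921819-6921878, minus strand: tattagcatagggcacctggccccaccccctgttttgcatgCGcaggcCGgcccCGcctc
Ppargc1a, chr5:51567736-51567795, minus strand: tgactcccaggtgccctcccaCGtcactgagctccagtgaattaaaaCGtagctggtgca
A motif match or a base count describes these windows only, and the files hold no measurement of binding or methylation.

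No member differed between Parkin KO and noninduced hearts past the threshold. By the quasi-likelihood test of edgeR, with Benjamini-Hochberg adjusted p-values over all 13050 genes, 0 of 10 members and 0 of all genes passed (0% called). At an unadjusted p under 0.05 there were 2 members, Pprc1 and Ppard, both lower in Parkin KO, where 5.54% of all tested genes were lower and 11.4% were past it in either direction. DESeq2 called 0.0853% of all genes and 0 members. Of the 10 members, 4 had a higher and 6 a lower mean, with a median log2 fold change of -0.06 against 0.01 over all tested genes. Of all 13050 tested genes, 6783 were higher and 6267 lower. For 0 of 10 members did the groups separate, as they did for 0.345% of all tested genes.

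**Figure D1:**
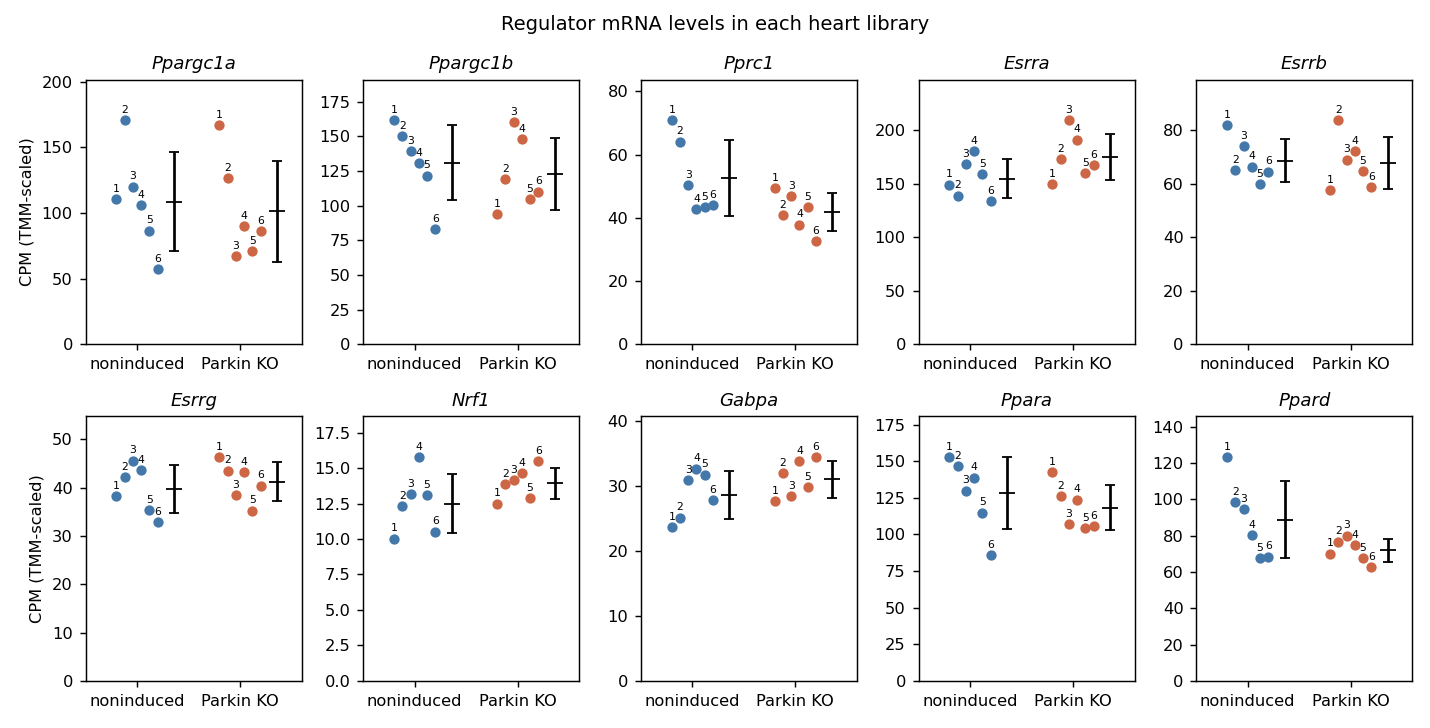
Level of each regulator in CPM (vertical axes, starting at 0) in the 6 noninduced and 6 Parkin KO libraries; points are libraries with their replicate number, and bars give the mean ± SD. The groups overlap in every panel, and Ppargc1a spreads widest, from 56.9 to 171 CPM.

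Among the coactivators, Ppargc1a encodes PGC-1α, which cold, fasting and exercise induce in several tissues. It lies on chromosome 5 from 51454250 to 51567726 (GRCm38, as are all positions below). Ppargc1a had a lowest value of 56.9, a median of 108 and a highest value of 171 CPM in noninduced libraries, and 67.1, 88.1 and 167 CPM in Parkin KO libraries. The ranges nearly coincide, with noninduced library 2 and Parkin KO library 1 both far above their groups' medians. The log2 fold change was -0.10 ± 0.25 (SE), with a 95% interval from -0.64 to 0.44 (edgeR, adjusted p = 0.885). The sign rested on single libraries, since the value was 0.06 without noninduced replicate 2 and -0.30 without Parkin KO replicate 1. Noninduced library 2 was also among those of high atrial marker and mitochondrial DNA reads, whose part was not tested.

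Ppargc1b, on chromosome 18 from 61298136 to 61400431, encodes PGC-1β, a related coactivator with a strong hold on ERR receptors. Its lowest, median and highest values were 83.4, 135 and 162 CPM in noninduced and 94.2, 115 and 160 CPM in Parkin KO libraries. Parkin KO libraries 3 and 4 stood above their group's median by a wide margin, and noninduced library 6 was the lowest of all. Its log2 fold change was -0.09 ± 0.16 (SE; edgeR, adjusted p = 0.817). Leaving out 1 library moved it between -0.21, without noninduced replicate 6, and -0.03, without Parkin KO replicate 1.

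Pprc1, on chromosome 19 from 46044886 to 46072915, encodes PRC, a member of the family that growth stimuli induce. Noninduced libraries gave a lowest value of 42.6, a median of 47.1 and a highest of 70.9 CPM, and Parkin KO libraries 32.6, 42.2 and 49.3 CPM. All 6 Parkin KO libraries lay below the noninduced mean, and the 2 highest values were those of noninduced libraries 1 and 2. Its log2 fold change, the largest in size among the members, was -0.33 ± 0.14 (SE), with a 95% interval from -0.63 to -0.02 (edgeR, unadjusted p = 0.0365, adjusted p = 0.424). Without noninduced libraries 1 and 2, a choice made after seeing the data, it was -0.12 (adjusted p = 0.962), and without noninduced libraries 1 and 3 it was -0.23 (adjusted p = 0.760).

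The estrogen-related receptors bind DNA without a known natural ligand and rely on PGC-1 proteins for activity. Esrra, on chromosome 19 from 6910977 to 6921813, had a lowest value of 133, a median of 154 and a highest of 180 CPM in noninduced libraries, and 150, 170 and 209 CPM in Parkin KO libraries. In Parkin KO, 5 of 6 libraries were above the noninduced mean, with the largest value in library 3. The log2 fold change was 0.18 ± 0.10 (SE), with a 95% interval from -0.03 to 0.39 (edgeR, adjusted p = 0.473). It was 0.11 without Parkin KO replicate 3. Summed cardiomyocyte markers ran alongside, from 73725 to 106711 CPM in noninduced and from 91992 to 112351 CPM in Parkin KO libraries, with noninduced library 6 lowest and Parkin KO library 3 highest in both measures. Their part in the result was not tested, and in such bulk samples fewer cells of a type and less RNA per cell cannot be told apart.

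Esrrb, known best from stem cells and also expressed in heart, lies on chromosome 12 from 86361117 to 86521628. Its lowest, median and highest values were 59.8, 65.7 and 81.9 CPM in noninduced and 57.5, 66.9 and 83.8 CPM in Parkin KO libraries. The groups covered almost the same range, and the log2 fold change was -0.02 ± 0.10 (SE; edgeR, adjusted p = 0.945), with a 95% interval from -0.24 to 0.20. Esrrg, which directs the postnatal switch of the heart to oxidative metabolism, lies on chromosome 1 from 187608791 to 188214885. It stood at 32.8, 40.1 and 45.6 CPM in noninduced and 35.2, 41.8 and 46.4 CPM in Parkin KO libraries, again lowest, median and highest. Its log2 fold change was 0.06 ± 0.10 (SE; edgeR, adjusted p = 0.822), with an interval from -0.15 to 0.26.

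Of the nuclear respiratory factors, Nrf1 lies on chromosome 6 from 30047988 to 30153458. It was the least abundant member, with 113 to 262 reads per library, so that counting alone gives a coefficient of variation near 7.06%. Its lowest, median and highest values were 10.0, 12.7 and 15.8 CPM in noninduced and 12.5, 14.0 and 15.5 CPM in Parkin KO libraries. All 6 Parkin KO libraries were above the noninduced mean of 12.488 CPM, but noninduced library 4 was the highest of all. Parkin KO library 1 was above that mean only by a tie, at 12.491 CPM, where 1 read is worth 0.0668 CPM. The log2 fold change was 0.16 ± 0.11 (SE; edgeR, adjusted p = 0.570), and 0.09 without noninduced replicate 1 and 0.10 without noninduced replicate 6.

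Gabpa, the DNA-binding subunit of the GABP complex, lies on chromosome 16 from 84834925 to 84863779. In noninduced libraries its lowest, median and highest values were 23.7, 29.3 and 32.7 CPM, and in Parkin KO libraries 27.7, 30.9 and 34.5 CPM. Noninduced libraries 1 and 2 were the lowest of the 12. For Gabpa the log2 fold change was 0.11 ± 0.10 (SE; edgeR, adjusted p = 0.628). It was 0.05 without noninduced replicate 1, 0.06 without noninduced replicate 2, 0.07 without Parkin KO replicate 6 and 0.0010 without noninduced replicates 1 and 2. Exons of Atp5j on the opposite strand cover 6.98% of its exon bases, and these libraries do not keep strand. Smaller overlaps lie at Pprc1, with Ldb1 on the opposite strand (2.82%), and at Esrra. Those at Esrra are with Trmt112 on the opposite strand (1.66%) and Mir6990 on the same strand (2.07%). The part of such overlaps in the counts was not tested.

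The PPAR receptors bind fatty acids and pair with RXR. Ppara, a form found in heart muscle and liver, lies on chromosome 15 from 85734983 to 85802819. It had a lowest value of 86.1, a median of 134 and a highest of 153 CPM in noninduced libraries, and 105, 115 and 142 CPM in Parkin KO libraries. Noninduced library 6 alone lay below all Parkin KO libraries, and 1 Parkin KO library was above the noninduced mean. The log2 fold change was -0.12 ± 0.13 (SE), with a 95% interval from -0.39 to 0.16 (edgeR, adjusted p = 0.707). It was -0.22 without noninduced replicate 6 (edgeR, unadjusted p = 0.0499, adjusted p = 0.346), -0.07 without noninduced replicate 1, -0.18 without Parkin KO replicate 1 and -0.0011 without noninduced replicates 1 and 2.

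Ppard, the more widely expressed form, lies on chromosome 17 from 28232700 to 28301474. Its lowest, median and highest values were 67.7, 87.4 and 123 CPM in noninduced and 62.5, 72.3 and 79.9 CPM in Parkin KO libraries. All 6 Parkin KO libraries lay below the noninduced mean, which noninduced library 1 raised most. The log2 fold change was -0.30 ± 0.13 (SE), with a 95% interval from -0.59 to -0.02 (edgeR, unadjusted p = 0.0393, adjusted p = 0.431). It was -0.20 without noninduced replicate 1 (adjusted p = 0.694), -0.14 without noninduced replicates 1 and 3 (adjusted p = 0.806) and -0.12 without noninduced replicates 1 and 2 (adjusted p = 0.960).

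**Figure D2:**
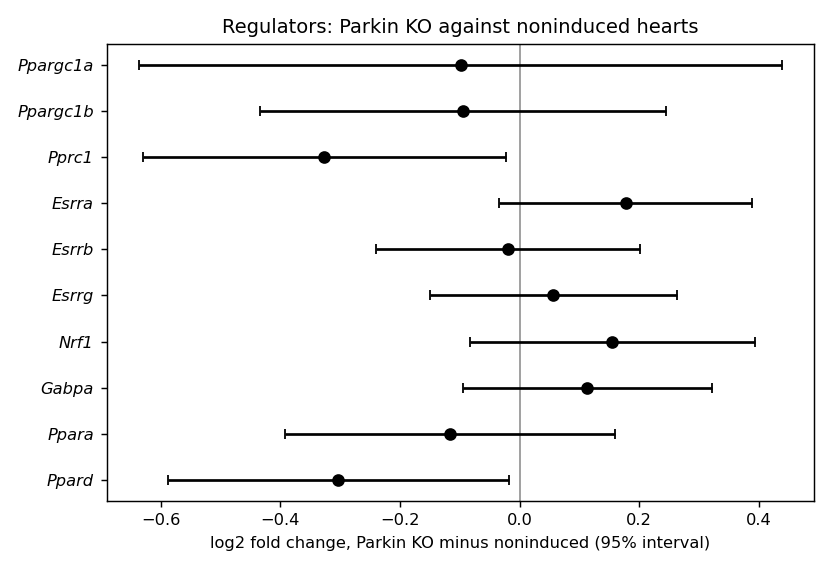
Log2 fold change of each regulator, Parkin KO minus noninduced (horizontal axis), as the edgeR estimate (points) with its 95% interval (bars). The intervals of Pprc1 and Ppard end just below 0, the other 8 span 0, and that of Ppargc1a is the widest.

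The intervals bound how far each mean could differ. For Ppargc1a the fold of Parkin KO over noninduced lay between 0.643 and 1.36, and for Esrrb between 0.847 and 1.15. The spread between libraries of a group set these widths. Ppargc1a had a coefficient of variation of 34.9% in noninduced and 37.9% in Parkin KO libraries, where counting alone gives 2.55%, and its pooled standard deviation of log2 CPM within groups, 0.516, exceeded that of 90.7% of tested genes. Gabpa, Esrrg and Esrra were among the steadier genes, with standard deviations of 0.164, 0.165 and 0.171 against a median of 0.237 over all tested genes. Ppard varied more among noninduced libraries (23.9%) than among Parkin KO libraries (8.93%), as did Nrf1 (16.7% and 7.96%); these differences in spread were not tested.

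The regulators varied together in distinct pairs, described here over all 45 pairs of members by Pearson's r and Spearman's rho of log2 CPM across the 12 libraries. Permutation p-values (100000 resamples, two-sided) were adjusted over the 45 pairs. By r, 6 pairs passed, by rho 7 pairs, and 4 pairs passed by both. All pairs come from the same libraries and share their scaling.

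The closest relation was an inverse one, between Pprc1 and Gabpa. Noninduced libraries 1 and 2 held 70.9 and 64.1 CPM of Pprc1 beside 23.7 and 25.1 CPM of Gabpa. Parkin KO library 6 held 32.6 CPM of Pprc1 beside 34.5 CPM of Gabpa, the lowest and the highest of the 12. Over the 12 libraries r was -0.913 (permutation p = 7e-05, adjusted p = 0.00315) and rho was -0.916 (permutation p = 0.00011, adjusted p = 0.00495). Within groups r was -0.887 in noninduced (exact permutation p = 0.0181, n = 6) and -0.958 in Parkin KO libraries (exact permutation p = 0.00278, n = 6). Without noninduced libraries 1 and 2, the 2 farthest from the median of Pprc1, r was -0.754.

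Ppargc1a and its partner receptor Ppara ran in parallel. Noninduced library 2 and Parkin KO library 1, the highest in Ppargc1a at 171 and 167 CPM, held 147 and 142 CPM of Ppara, and noninduced library 6 was lowest in both, at 56.9 and 86.1 CPM. Over the 12 libraries r was 0.869 (permutation p = 0.00029, adjusted p = 0.00495) and rho was 0.867 (permutation p = 0.00061, adjusted p = 0.00686). It was 0.880 in noninduced (exact permutation p = 0.0194, n = 6) and 0.922 in Parkin KO libraries (exact permutation p = 0.00556, n = 6), and 0.790 without noninduced libraries 2 and 6.

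The nuclear respiratory factors Nrf1 and Gabpa also ran in parallel, with r = 0.828 (permutation p = 0.001, adjusted p = 0.0113) and rho = 0.881 (permutation p = 0.00034, adjusted p = 0.00686). Their r was 0.803 in noninduced (exact permutation p = 0.0681, n = 6) and 0.818 in Parkin KO libraries (exact permutation p = 0.0486, n = 6), and 0.767 without noninduced libraries 1 and 6. Esrra and Nrf1 passed by both measures too, with r = 0.738 (permutation p = 0.00586, adjusted p = 0.044) and rho = 0.860 (permutation p = 0.00051, adjusted p = 0.00686). That relation did not pass within either group of 6, where r was 0.799 in noninduced (exact permutation p = 0.0569) and 0.545 in Parkin KO libraries (exact permutation p = 0.267). Without noninduced library 6 and Parkin KO library 3 it was 0.732.

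**Figure D3:**
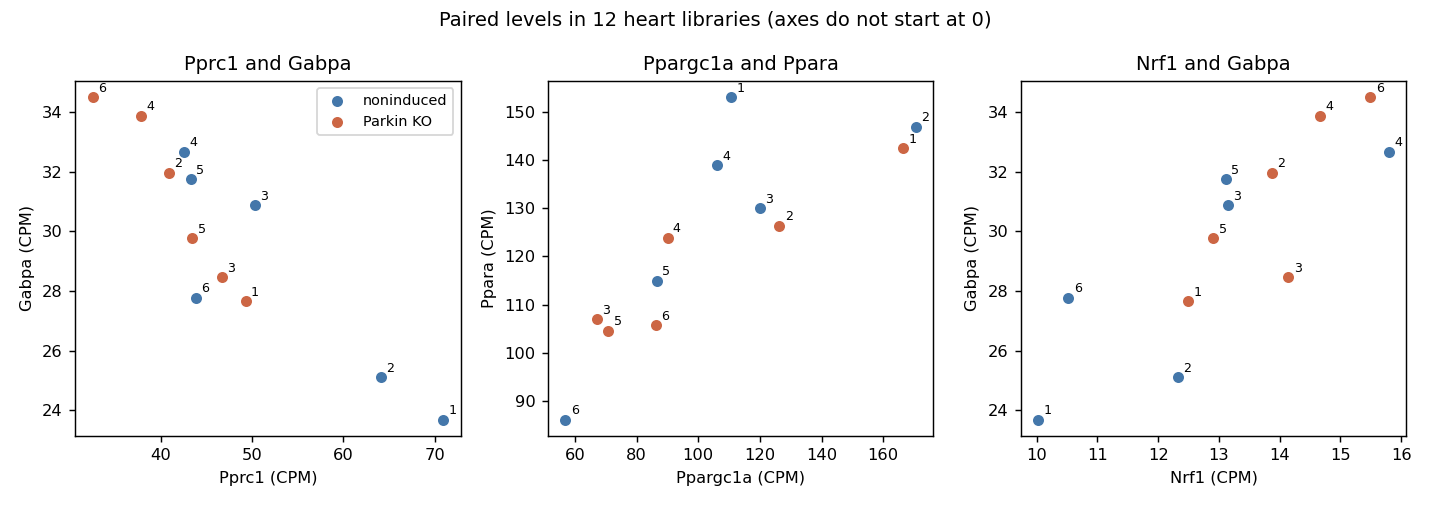
Levels in CPM of Pprc1 and Gabpa, Ppargc1a and Ppara, and Nrf1 and Gabpa, 1 point per library with its replicate number, coloured by group; axes do not start at 0. Gabpa is lower where Pprc1 is higher, with noninduced libraries 1 and 2 at the far end, and the other pairs slope upward in both groups.

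Pprc1 with Ppard (r = 0.859, adjusted p = 0.00495 by permutation; rho = 0.643, adjusted p = 0.115) and Ppargc1a with Esrrg (r = 0.777, adjusted p = 0.0311 by permutation; rho = 0.727, adjusted p = 0.0542) passed by r and not by rho. Leaving out the 2 libraries farthest from the median, r was 0.567 for Pprc1 with Ppard, without noninduced libraries 1 and 2, and 0.752 for Ppargc1a with Esrrg, without noninduced libraries 2 and 6. Within groups, Pprc1 with Ppard had r = 0.912 in noninduced (exact permutation p = 0.00694, n = 6) and 0.513 in Parkin KO libraries (exact permutation p = 0.307, n = 6). Ppargc1a with Esrrg had 0.784 (exact permutation p = 0.05, n = 6) and 0.876 (exact permutation p = 0.0167, n = 6), and 0.549 with total-count scaling. By rho alone the pairs Ppargc1b with Ppard (0.762, adjusted p = 0.0413 by permutation), Ppara with Ppard (0.783, adjusted p = 0.0321) and Pprc1 with Nrf1 (-0.748, adjusted p = 0.0473) passed. The 2 coactivators Ppargc1a and Ppargc1b had r = 0.231 over all libraries (permutation p = 0.469, adjusted p = 0.654), with 0.876 in noninduced (exact permutation p = 0.0278, n = 6) and -0.558 in Parkin KO libraries (exact permutation p = 0.239, n = 6); the difference between the groups was not tested.

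**Figure D4:**
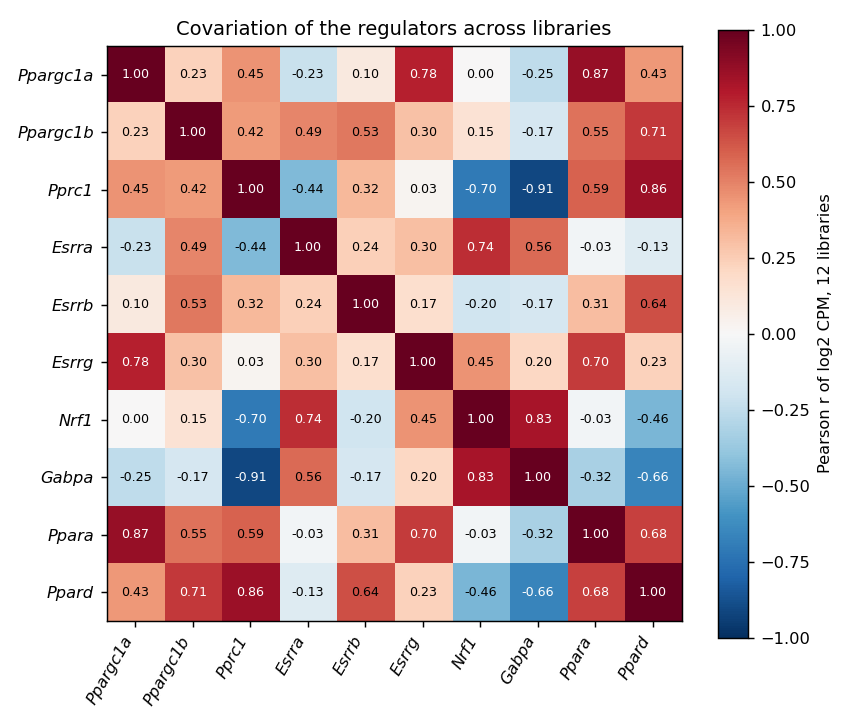
Pearson's r of log2 CPM over the 12 libraries for each pair of regulators, from -1 (blue) to 1 (red), with the value in each cell and 1 on the diagonal. Ppargc1a, Esrrg and Ppara are red with one another, as are Esrra, Nrf1 and Gabpa, and Pprc1 is blue against Gabpa and Nrf1.

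The share of counts from mitochondrial DNA moved with several members. Over 10 relations, r was 0.821 for Pprc1 (permutation p = 0.00311, adjusted p = 0.0303), 0.754 for Ppard (permutation p = 0.00909, adjusted p = 0.0303) and -0.730 for Gabpa (permutation p = 0.00737, adjusted p = 0.0303), and by rho 0 passed, with adjusted p = 0.107, 0.252 and 0.132 in that order. These relations rest on noninduced libraries 1 and 2: without them r was 0.296, 0.171 and -0.096. Among the 6 noninduced libraries r was 0.977 for Pprc1 (exact permutation p = 0.0111), and among the 6 Parkin KO libraries it was 0.050 (exact permutation p = 0.938). Esrra had the opposite sign to Pprc1, with r = -0.628 (permutation p = 0.0293, adjusted p = 0.0644; rho = -0.601, adjusted p = 0.107), and -0.786 without noninduced library 6 and Parkin KO library 3. The inverse relation of Pprc1 and Gabpa had r = -0.754 with both libraries left out, and r = -0.958 among Parkin KO libraries, which hold 5.17% to 9.53% of such reads. The part of mitochondrial DNA reads in this inverse relation was not tested.

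Genes whose pattern over the 12 libraries was most like each member were listed as the 3 with the highest Spearman rho among the other 13049 tested genes, as a description without a test. Esrra was closest to Myh6, the main myosin of the adult heart (rho 0.972), Atad3a, a mitochondrial membrane ATPase (0.965), and Lamb2, a laminin chain (0.965). Ppargc1a was closest to Ttc17 (0.944), Smcr8 (0.923) and Rgs2, a regulator of G protein signals (0.916), and Ppargc1b to the kinase gene Abl1 (0.965), Espn (0.958) and the chromatin gene Arid1b (0.958). Pprc1 followed Gatad2a (0.972), Ticam1 (0.958) and Cep120 (0.951).

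Esrrb followed Tmem259 (0.951), the ventricular repressor Hey2 (0.937) and Atp5g3, a subunit of ATP synthase (0.930). Esrrg followed Vps13d (0.930), the autophagy receptor Nbr1 (0.909) and the autophagy lipid transfer gene Atg2b (0.909). Nrf1 was closest to Dhrs7 (0.958), Adcy9 (0.951) and Gpn3 (0.951), and Gabpa to Dtd1 (0.958) and the peroxisomal genes Hsd17b4 (0.951) and Abcd3 (0.916). Ppara was closest to Myocd, a coactivator of cardiac and smooth muscle genes (0.937), Cpsf7 (0.930) and Stk35 (0.930), and Ppard to Acin1 (0.979), Klf7 (0.944) and Rpl29 (0.944). These values were chosen as the highest of many.

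The other genes of the circuit were taken as 4 lists chosen by function, with earlier results of these data known. Some genes are on more than 1 list. The counts of each list are therefore a description, and no list was tested. Beside each list stand all 13050 tested genes, of which 6783 were higher and 6267 lower in Parkin KO. Cofactors and upstream regulators, such as RXR partners, corepressors, acetyltransferases and kinases, had 40 tested genes, 16 higher and 24 lower in Parkin KO, and a median log2 fold change of -0.01 (edgeR), as against 0.01 over all tested genes. In this list 0 passed, and at an unadjusted p under 0.05 there was 1 higher and 2 lower, beside 5.82% of all tested genes higher and 5.54% lower. The smallest p in the higher direction belonged to Sirt3, the mitochondrial deacetylase (0.20 ± 0.09, SE), Rxra, the partner of PPAR receptors (0.16 ± 0.08), and Pparg (0.25 ± 0.17). In the lower direction they included the acetyltransferases Ep300 (-0.26 ± 0.12) and Kat2a (-0.20 ± 0.09). Adjusted p was 0.424 to 0.551 for these 5 genes in edgeR.

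PPAR targets had 31 of 33 tested genes (of 34 listed) higher and 2 lower, with a median log2 fold change of 0.37. At an unadjusted p under 0.05 there were 18 higher and 0 lower, where 5.82% of all tested genes were higher, and 0 passed the adjusted threshold. Of the 3 genes of smallest p, Ehhadh, a peroxisomal oxidation enzyme, averaged 14.3 ± 3.70 CPM with the knockout and 9.72 ± 1.53 CPM without it (SD, 6 libraries each), a log2 fold change of 0.56 ± 0.17 (SE). The others were Mlycd (0.51 ± 0.15), which lowers malonyl-CoA, and Eci1 (0.37 ± 0.11), an enoyl-CoA isomerase. The genes with lower means were Ucp2 (-0.40 ± 0.24) and Cpt1c (-0.06 ± 0.16). Adjusted p was 0.417 for each of the 3 higher genes (edgeR), and 0.495 and 0.890 for Ucp2 and Cpt1c.

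The score of the PPAR targets, the mean over genes of log2 CPM centred on all libraries, averaged -0.189 ± 0.266 without and 0.189 ± 0.294 with the knockout (SD, 6 libraries each), and the groups overlapped. Parkin KO libraries 6, 2 and 5, all with high Y-linked reads, had the 3 highest scores, and noninduced library 6 the lowest. With a term for Y-linked reads the median log2 fold change of the list was 0.28, and among the 8 libraries with under 10 such reads it was 0.20. Beside these targets, their receptors Ppara and Ppard had log2 fold changes of -0.12 and -0.30.

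ERR targets had 27 of 30 tested genes higher and 3 lower, a median of 0.16 and 0 past the adjusted threshold, with 11 higher and 0 lower at an unadjusted p under 0.05, beside 5.82% and 5.54% of all tested genes. The 3 lowest scores of this list, -0.387, -0.140 and -0.095, were those of noninduced libraries 6, 2 and 5, the libraries with the highest atrial markers, and library 6 was also the lowest in cardiomyocyte markers. Their part in the difference was not tested. Suclg1 (0.32 ± 0.10, SE) of the tricarboxylic acid cycle, Atp5a1 (0.34 ± 0.12) of ATP synthase and Pdk4 (0.97 ± 0.34), the kinase that shuts pyruvate dehydrogenase, had the smallest p (edgeR, adjusted p = 0.417 for each). Vegfa (-0.12 ± 0.10), Kcnj11 (-0.06 ± 0.13) and Got1 (-0.01 ± 0.12) had lower means (adjusted p = 0.614, 0.851 and 0.983). Perm1, a muscle partner of PGC-1 and ERR whose row carries the older symbol 2310042D19Rik, averaged 503 ± 48.4 CPM with the knockout and 499 ± 51.0 CPM without it (SD, 6 libraries each), and was picked out after seeing its values. Without noninduced replicate 6 the median of the list was 0.08.

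NRF1 and GABP targets had 26 of 30 tested genes (of 31 listed) higher and 4 lower, a median of 0.13 and 0 past the adjusted threshold, with 7 higher and 0 lower at an unadjusted p under 0.05, beside 5.82% and 5.54% of all tested genes. The lowest scores, -0.188 and -0.158, were those of noninduced libraries 6 and 2, with 4083 and 3330 CPM of atrial markers. Noninduced library 5, the highest in these markers at 5987 CPM, scored -0.049, above noninduced library 1 at -0.081 with 159 CPM. The part of atrial markers was not tested. The cytochrome oxidase subunits Cox4i1 (0.33 ± 0.11, SE) and Cox6c (0.36 ± 0.14) and the import channel subunit Timm17a (0.30 ± 0.11) had the smallest p (edgeR, adjusted p = 0.417, 0.424 and 0.424). Alas1 of heme synthesis (-0.22 ± 0.16), Sdhc (-0.16 ± 0.18) and Mrpl12 (-0.07 ± 0.10) had lower means (adjusted p = 0.578, 0.711 and 0.796). Tfam, which packages mitochondrial DNA and was picked out after seeing its values, averaged 15.6 ± 1.63 CPM with the knockout and 15.0 ± 2.23 CPM without it (SD, 6 libraries each).

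**Figure D5:**
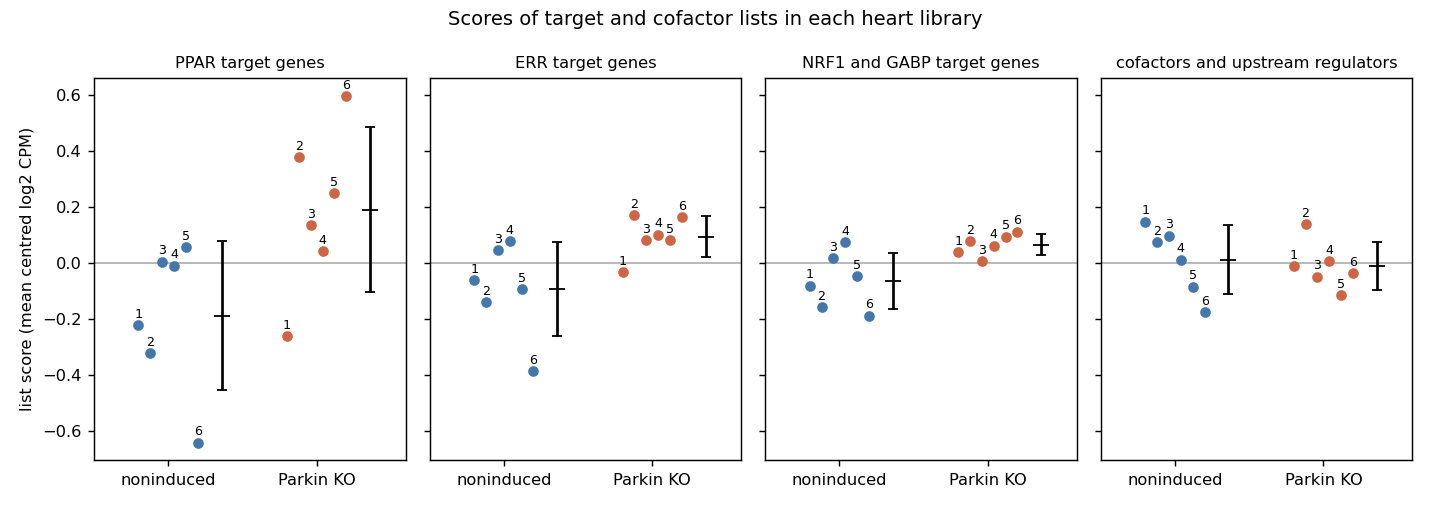
Score of each list (vertical axis, mean centred log2 CPM) in every library, with replicate numbers and mean ± SD for the 6 noninduced and 6 Parkin KO libraries. PPAR targets spread from -0.641 to 0.596, wider than the other lists, and the groups overlap in all 4 panels.

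Levels of the regulators were set against these target scores over the 12 libraries, in 30 relations of 10 members with 3 lists. By r, 3 passed after adjustment, and by rho 0 passed. Esrra against the ERR targets had r = 0.755 (permutation p = 0.00356, adjusted p = 0.0486) and rho = 0.797 (permutation p = 0.00292, adjusted p = 0.0835), with 0.891 in noninduced (exact permutation p = 0.0111, n = 6) and 0.341 in Parkin KO libraries (exact permutation p = 0.525, n = 6). It was 0.768 without noninduced library 6 and Parkin KO library 3. Summed cardiomyocyte markers were also lowest in the first of these libraries and highest in the second, and their part in the relation was not tested. The relation was not particular to the ERR list. Esrra had r = 0.661 with NRF1 and GABP targets (adjusted p = 0.0810 by permutation) and 0.619 with PPAR targets (adjusted p = 0.109). These were 0.997 and 0.873 among noninduced libraries, and -0.490 and 0.120 among Parkin KO libraries.

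Nrf1 passed by r against the joint list of NRF1 and GABP targets, with r = 0.755 (permutation p = 0.00467, adjusted p = 0.0486) and rho = 0.685 (permutation p = 0.0167, adjusted p = 0.0835). It also passed by r against ERR targets, with r = 0.752 (permutation p = 0.00486, adjusted p = 0.0486) and rho = 0.748 (permutation p = 0.00716, adjusted p = 0.0835). Within groups neither passed. Against NRF1 and GABP targets r was 0.765 in noninduced (exact permutation p = 0.0653, n = 6) and 0.298 in Parkin KO libraries (exact permutation p = 0.564, n = 6), and against ERR targets 0.663 (exact permutation p = 0.154, n = 6) and 0.749 (exact permutation p = 0.0694, n = 6). Without noninduced libraries 1 and 6, r was 0.599 and 0.697. The NRF1 and GABP list and the ERR list share genes, Cox6c among them, so these relations are not independent. Against PPAR targets Nrf1 had r = 0.717 over all libraries (permutation p = 0.00908, adjusted p = 0.0670), which did not pass.

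Ppargc1a and Ppara showed no such relation with the PPAR targets. For Ppargc1a r was -0.094 (permutation p = 0.769, adjusted p = 0.922) and for Ppara -0.095 (permutation p = 0.769, adjusted p = 0.922). Noninduced library 6 was low in Ppargc1a, Ppara and the target score alike, while Parkin KO library 1 was high in both regulators and low in the score. Without noninduced libraries 1 and 6, r for Ppara was -0.767, and it was 0.518 in noninduced (exact permutation p = 0.313, n = 6) and -0.682 in Parkin KO libraries (exact permutation p = 0.140, n = 6). The value over all 12 libraries thus rests on those 2 samples, and the relation did not pass in either group.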

How the data were processed

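Read counts per gene symbol, as deposited by the authors, were tested without change. The authors' deposited FPKM values were used for levels per length and as an alternative. Bowtie2, TopHat2 2.0.10, HTSeq and Cufflinks 2.1 with build mm10 come from the submitters' processing notes; the annotation and counting mode are not given in the sources consulted. Columns named for wild-type controls were taken as noninduced samples of the same number.

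Counts were fitted in R 4.3.3 with edgeR 4.0.16 (filterByExpr, TMM, glmQLFit and glmQLFTest on the group term, two-sided, adjusted threshold 0.05). Intervals derive from the F statistic and are approximate. CPM uses TMM-scaled totals, with a prior count of 1 on the log scale; 1 count was worth 0.0548 to 0.0948 CPM. DESeq2 1.42.0 and limma 3.58.1 served as alternatives. On simulated counts (13050 genes), 90% of 100 genes changed by a factor of 2 and 98% of 100 changed by a factor of 4 were recovered. Smaller changes were not simulated, and genes were drawn independently, without differences shared by whole libraries. The recovery of changes as small as those of the members, at most a fold of 0.798 for Pprc1, is therefore not known. Same-number libraries were not treated as pairs in the main fit. Members, lists and tests were chosen with earlier results of these data known. Named were all members, the 3 genes of smallest p per list and direction, the 3 most alike per member, and Esr1. Positions come from GENCODE M21. The targeted gene and a gene that the naming rule picked are not reported here, so no check of the knockout from these counts is given.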

Additional observations from a re-analysis of the deposited data

How the results depend on the processing

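Over 25 alternatives for each of 10 members, 0 of 250 log2 fold changes passed the adjusted threshold, 236 kept their sign and 14 did not. The sign turned for Ppargc1a (0.058 without noninduced replicate 2, 0.025 among libraries with under 10 Y-linked reads, 0.12 without noninduced replicates 1 and 2), Ppargc1b (0.053 among libraries with under 10 Y-linked reads, 0.0023 without noninduced replicates 1 and 3, 0.037 without noninduced replicates 1 and 2), Esrrg (-0.0018 without noninduced replicate 6) and Esrrb (0.068 without noninduced replicates 1 and 3, 0.020 without noninduced replicates 1 and 2, 0.0074 with total-count scaling, and, leaving out 1 library, -0.10 to 0.023, with 0.0035 without noninduced replicate 3, 0.0090 without Parkin KO replicate 6, and 0.023 without noninduced replicate 1 or Parkin KO replicate 1). Leaving out 1 library gave -0.30 to 0.058 for Ppargc1a and -0.0018 to 0.10 for Esrrg. The cause was not tested. Alternatives with total-count scaling, without mitochondrial DNA genes in the totals and without noninduced replicates 1 and 2 were chosen after seeing the data. The count of all genes past the threshold was 10 with DESeq2, 1 without noninduced replicates 1 and 3, and 0 under the others. At an unadjusted p under 0.05 the 1483 genes became 628 among libraries with under 10 Y-linked reads, 632 without noninduced replicates 1 and 2, 932 without noninduced replicate 2, 944 without Parkin KO replicate 6 and 972 without noninduced replicate 1. With the replicate number as a block, 0 members passed, the log2 fold change was -0.31 for Pprc1 and -0.28 for Ppard, and 1700 genes were past an unadjusted p of 0.05; correlations of same-number deviations ran from -0.098 to 0.161, and 1 of 6 libraries correlated best with its own number, so the samples share only a number. List medians kept their direction for the 3 target lists, at 0.20 to 0.42 for PPAR, 0.08 to 0.21 for ERR and 0.09 to 0.16 for NRF1 and GABP targets, while that of cofactors ran from -0.07 to 0.02. Depth limits Nrf1 most, at 113 reads in its lowest library.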
